A study of Drosophila melanogaster with 4 samples.

Results

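Cytochrome P450 genes were followed in RNA from midguts of Drosophila melanogaster. A gene was taken when its FlyBase symbol was Cyp followed by digits, letters and digits, which leaves out the cyclophilins Cyp1 and Cyp40, and when its mean over the 4 libraries was at least 1 normalized count. Of 77 such P450 genes in a table of 13585 gene IDs, 62 passed, and these 62 genes are described here among the 8568 genes of any kind that reached the same mean. The filter used the mean over all libraries and no difference between them. For 3 of the 62 (Cyp4s3, Cyp49a1 and Cyp6t3) the mean would have been below 1 without the library where the gene was highest. That library was uracil at 16 h for all 3, so the filter favoured them in counts of genes high there.

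The groups were midguts of control flies with no treatment and midguts of uracil-treated flies, taken 2 h or 16 h in, and a single library of polyadenylated RNA stood for each of the 4 groups. Uracil, which certain gut microbes secrete, is known to make the fly gut produce reactive oxygen. For strain, sex, age, uracil dose, route and the number of guts in a library, the sources used here give no entry. Without replicates, a gap between libraries has no test and is called higher or lower only as a value. A normalized count is the authors' value per gene and library, the reads of a gene divided by an effective library size.

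P450 enzymes are haem proteins that insert oxygen into small molecules. Insect P450s fall into clans. Many CYP3 clan enzymes, such as the Cyp6, Cyp9 and Cyp28 families, act on plant toxins and insecticides. CYP4 clan enzymes include fatty acid hydroxylases and the enzyme that makes cuticular hydrocarbons, the mitochondrial clan draws its electrons from a ferredoxin system, and the CYP2 clan holds several enzymes of ecdysteroid metabolism. In the fly, P450s are known to be made in the midgut, the fat body and the Malpighian tubules, the excretory organ that joins the gut at the end of the midgut. By family number, 29 of the 62 genes belonged to the CYP3 clan, 24 to the CYP4 clan, 7 to the mitochondrial clan and 2 to the CYP2 clan. In the Ensembl release 115 annotation 29 of them lie on chromosome arm 2R, 11 on X, 10 on 3R, 8 on 2L and 4 on 3L.

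Between 8500378 and 8990316 reads fell in genes in 3 libraries and 16588143 in the untreated 16 h library, and each of the 62 genes had at least 1 read in every library. A single read was worth 0.127 normalized counts in the untreated 2 h library, 0.118 with uracil at 2 h, 0.0584 untreated at 16 h and 0.111 with uracil at 16 h. Enterocyte markers were abundant in all libraries, with 11 of 11 markers measured and a summed level of 35821 and 33089 normalized counts at 2 h (untreated, uracil) and 18044 and 20644 at 16 h. Markers of neighbouring tissues were present too. The untreated 16 h library stood apart in part of the photoreceptor genes, with the rhodopsin gene ninaE at 22.5 normalized counts against 0 to 0.665 in the other libraries. The 6 measured photoreceptor markers summed to 21.3 and 24.9 at 2 h (untreated, uracil) and to 79.6 and 33.5 at 16 h. At 16 h 3 of the 6 were at least 2-fold lower with uracil and 0 higher, while norpA (24.9 and 24.8) and trp (2.57 and 2.44) were nearly equal. Summed levels of 4 female germline markers were 54.9 and 79.9 at 2 h and 34.6 and 78.5 at 16 h, of hemocyte markers (7 measured) 117 and 84.6, then 109 and 115, and of tracheal markers (2 measured) 5.07 and 2.48, then 5.72 and 8.21. Among the hemocyte markers 3 of 7 were at least 2-fold lower with uracil at 16 h (Hml, PPO2 and NimC1) and 1 higher (srp, 31.5 and 64.8), with a median log2 ratio of -0.99. The part of other tissues in the P450 differences was not tested. In bulk RNA, fewer cells of a type and less RNA per cell cannot be told apart.

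P450 mRNA was dominated by a few CYP3 and mitochondrial genes. P450 genes took 1.04% and 0.948% of the reads at 2 h (untreated, uracil) and 1.07% and 1.15% at 16 h. The CYP3 clan held 73.6% of the summed normalized counts of the 62 genes, the mitochondrial clan 15.7% and the CYP4 clan 10.5%. Per kilobase of exon, Cyp9b2 had the highest mean level, 1176 normalized counts per kb, followed by Cyp9f2 at 741.9, Cyp12a4 at 650, Cyp6d5 at 631.3 and Cyp6a23 at 621.5. Overexpression of Cyp12a4, a mitochondrial P450, is known to give resistance to the insect growth regulator lufenuron. Next came Cyp6g1, the gene of DDT resistance in wild flies, at 284.4 per kb, then Cyp12a5 at 209.3, Cyp6a9 at 129.4, Cyp4ae1 at 127.3 and Cyp28d1 at 124.9. Of the first 5 of these genes, 4 were within 2-fold over the 4 libraries, and Cyp6d5 had a highest level 3.51 times its lowest. Cyp9b2 was at 2167 and 2141 normalized counts at 2 h without and with uracil and at 2074 and 1460 at 16 h, a highest level 1.48 times the lowest. Cyp9f2 was at 1473 and 1404, then 916 and 1424 (1.61 times). Cyp12a4 was at 1318 and 1098, then 891 and 1105 (1.48 times). Cyp6a23, which has a close relative in its neighbour Cyp6a17, was at 1315 and 1157, then 1014 and 892 (1.47 times). Of the 62 genes, 37 were within 2-fold in all 4 comparisons between libraries and 25 were at least 2-fold apart in at least 1. The matching share of all genes was not counted, so the 25 only describe the P450 genes. Shares of all genes are given below for each comparison alone. The 2-fold rule and all log2 ratios use log2(normalized count + 1), while ratios and folds with an interval are of the normalized counts themselves.

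**Figure D1:**
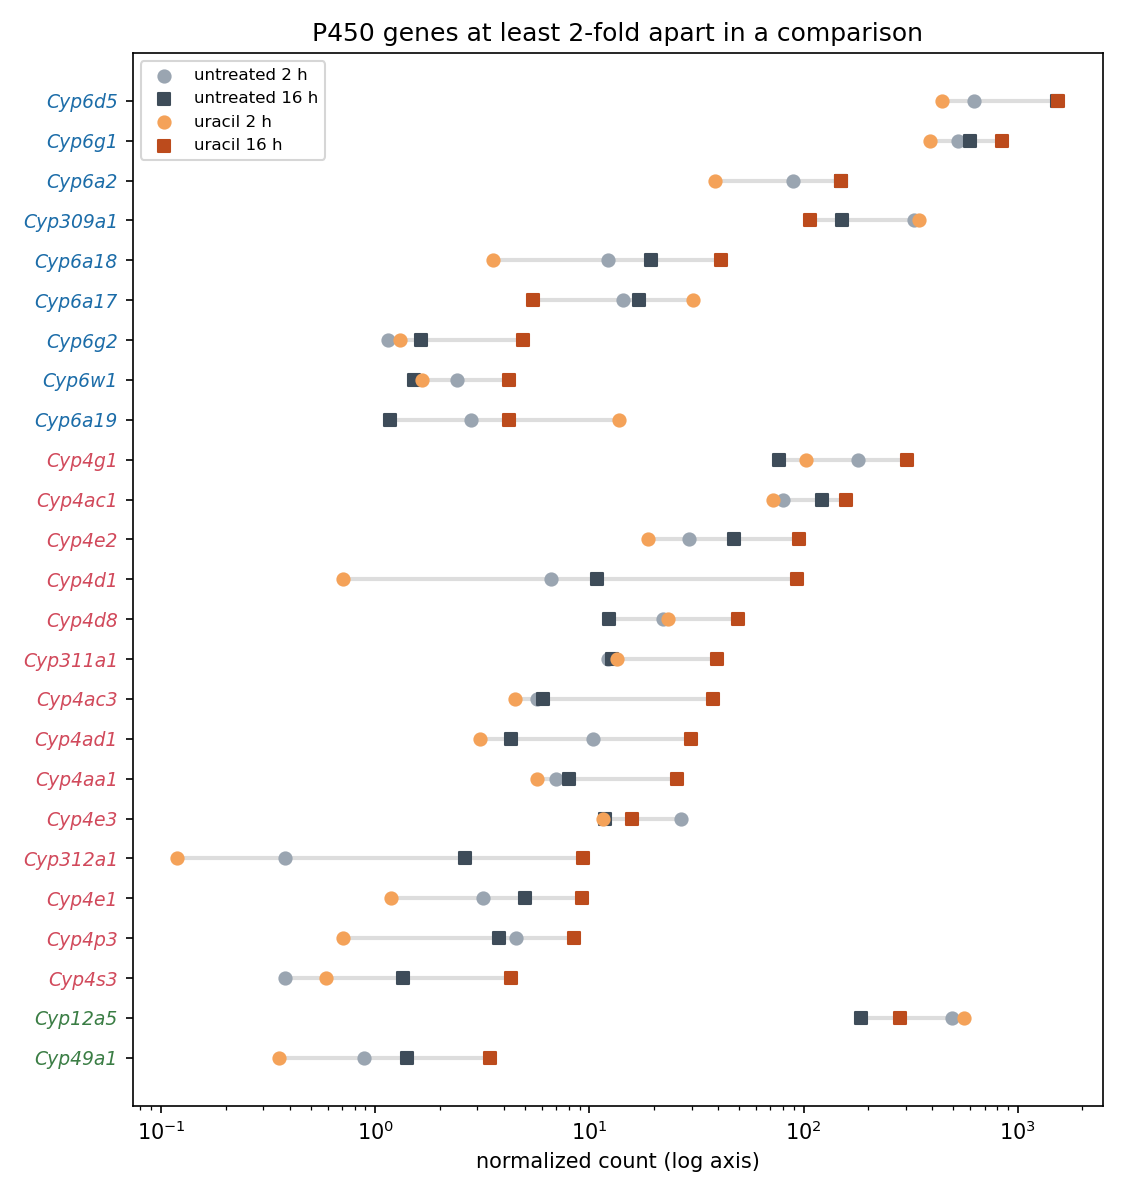
Normalized counts (log axis) of the 25 P450 genes at least 2-fold apart in at least 1 comparison, 1 point per library; gene names are blue for the CYP3 clan, red for CYP4 and green for mitochondrial. Most CYP4 genes are highest with uracil at 16 h, as Cyp4d1 at 93.6, while Cyp6a17 and Cyp309a1 are lowest there.

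At 2 h, the comparison of uracil with untreated guts asks which P450 mRNAs differed soon after exposure. More P450 genes were lower than higher with uracil. Of the 62 genes, 2 (3.23%) were at least 2-fold higher, where 1.54% of all genes were, and 6 (9.68%) were at least 2-fold lower, where 1.51% of all genes were. The median log2 ratio was -0.17 for the P450 genes and 0.01 for all genes. Of the 62 genes, 42 lay below 0, as did 4092 of all 8568 genes. Summed over the 62 genes, the level was 11223 normalized counts without and 10065 with uracil. The 6 lower genes were 4 of the CYP4 clan (Cyp4d1, Cyp4p3, Cyp4ad1 and Cyp4e3) and 2 of the CYP3 clan (Cyp6a18 and Cyp6a2). The 2 higher genes, Cyp6a19 and Cyp6a17, were CYP3 genes of a single group of neighbours on 2R.

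Cyp4d1 had the widest gap at 2 h. It was at 6.59 normalized counts untreated and 0.709 with uracil, a ratio of 0.108 (95% counting interval 0.0377 to 0.25). Cyp4p3 was at 4.56 and 0.709 (ratio 0.155, 0.0535 to 0.372). Both genes were low in abundance, so few reads stood behind the lower value. Cyp4ad1 was at 10.4 untreated and 3.07 with uracil (0.295, 0.182 to 0.464). Cyp4e3, which is known to contribute to permethrin tolerance from the Malpighian tubules, was at 26.9 and 11.6 (0.431, 0.335 to 0.55). In the CYP3 clan, Cyp6a18 was at 12.2 and 3.54 (0.291, 0.186 to 0.443). Cyp6a2, an insecticide-metabolizing enzyme, was at 89.3 and 38.4 (0.43, 0.376 to 0.491), the only gene with a mean of at least 100 normalized counts among the 8 that were 2-fold apart at 2 h. Higher with uracil were Cyp6a19, at 2.79 untreated and 13.7 with uracil (4.91, 3.1 to 8.14), and Cyp6a17, a gene known to affect temperature preference, at 14.3 and 30.6 (2.14, 1.71 to 2.69). Exons of Cyp6a19 share 397 bases with exons of Cyp6a9 on the other strand in the Ensembl annotation. Cyp6a9 was at 285 and 225, the opposite side from Cyp6a19, and the sources used here do not say whether reads were counted by strand.

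Malpighian tubule markers stood lower in the same library. All 16 listed markers were measured, with 6 at least 2-fold lower under uracil at 2 h, 0 higher and a median log2 ratio of -0.27. Their summed level was 628 normalized counts untreated and 464 with uracil, and none was at 0. The urate oxidase gene Uro was at 82.6 and 14.2, and the transporter gene NaPi-T at 49 and 15.6. The part of tubule tissue in the lower P450 values was not tested.

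At 16 h, the same comparison asks which differences were present late. Here the P450 genes stood on the higher side with uracil, most of all the CYP4 clan. Of the 62 genes, 13 (21%) were at least 2-fold higher with uracil, where 7.73% of all genes were, and 1 (1.61%) was at least 2-fold lower, where 0.992% of all genes were. The median log2 ratio was 0.41 for the P450 genes and -0.02 for all genes, and 46 of 62 (74.2%) lay above 0 against 48.6% of all genes. Their summed level was 10369 untreated and 11293 with uracil, a ratio of 1.09. The most abundant genes lay on both sides, with Cyp9b2 at a ratio of 0.704, Cyp9f2 at 1.55 and Cyp12a4 at 1.24. Genes of low abundance were more often higher in this comparison, whatever their kind. Among P450 genes with a mean of 1 to 10 normalized counts, 5 of 15 (33.3%) were 2-fold higher, against 15.5% of all genes of that level. At a mean of 10 to 100 it was 7 of 26 (26.9%) against 6.22%, and at 100 or more it was 1 of 21 (4.76%) against 3.83%. The P450 medians in these levels were 0.92, 0.38 and 0.31, and those of all genes were 0.34, -0.07 and -0.10. The 15 P450 genes of the lowest level include Cyp4s3, Cyp49a1 and Cyp6t3, which passed the filter only through the uracil 16 h library. Cyp4s3 is 1 of the 5 higher genes, and all of them count among the 46 above 0. The count and median of that level therefore lean on the filter.

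In the CYP4 clan, 9 of 24 genes were at least 2-fold higher with uracil at 16 h and 0 were lower. The clan's median log2 ratio was 0.87. Its summed level was 1012 normalized counts untreated and 1614 with uracil, a ratio of 1.6, and 23 of the 24 genes lay above 0. The exception was Cyp4ae1, at 314.2 untreated and 230 with uracil (log2 ratio -0.45). Of the summed CYP4 level, Cyp4g1 made up 76.9 normalized counts untreated and 303.3 with uracil. In the CYP3 clan 4 of 29 were higher and 1 lower (median 0.07), in the mitochondrial clan 0 of 7 either way (median 0.47), and of the CYP2 clan 0 of 2. The summed CYP3 level was 8083 untreated and 8081 with uracil.

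**Figure D2:**
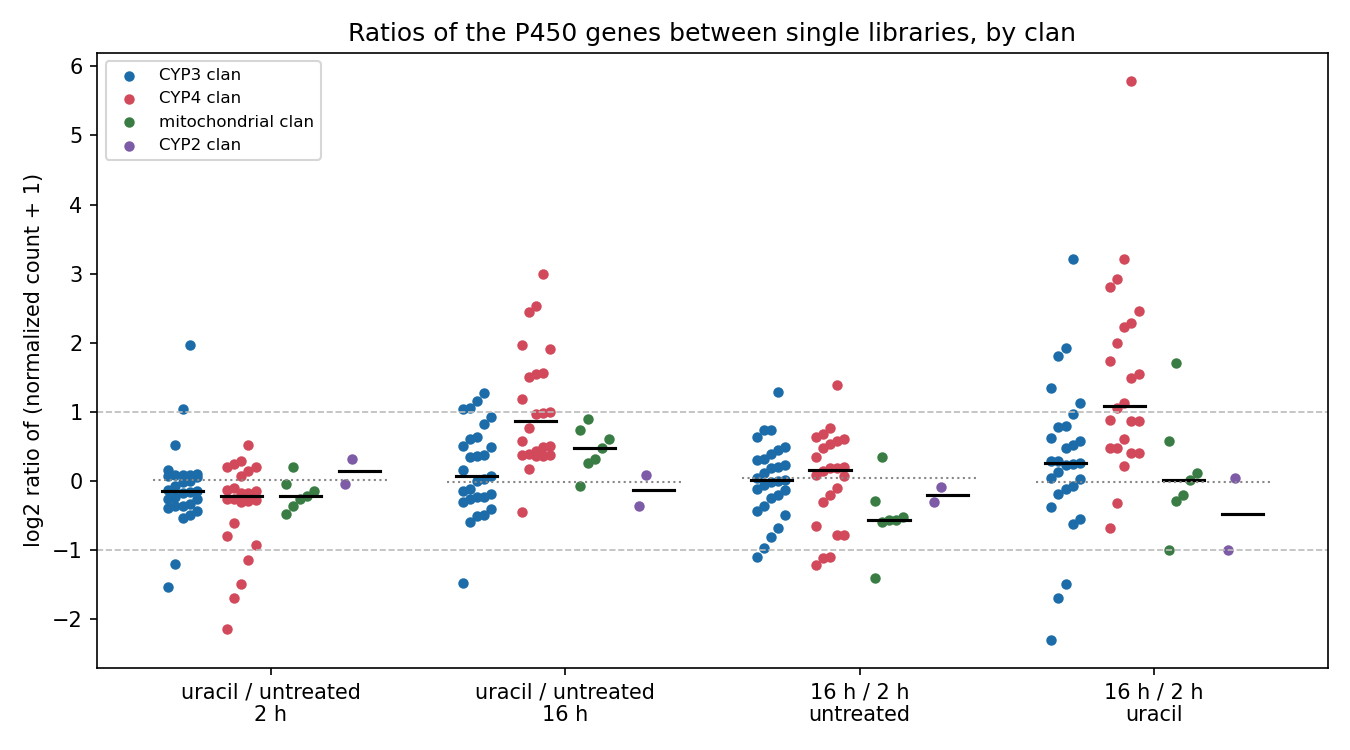
Log2 ratio of (normalized count + 1) of each of the 62 P450 genes in the 4 comparisons of single libraries, 1 point per gene coloured by clan; bars are clan medians, dotted lines the median of all 8568 genes and dashed lines 2-fold. With uracil at 16 h the CYP4 points lie above 0 except for Cyp4ae1, and the CYP3 points spread around a median of 0.07.

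Cyp4d1 again had the widest gap, now on the other side. It was at 10.8 normalized counts untreated and 93.6 with uracil at 16 h, 8.66-fold higher (7.38 to 10.2). Cyp4ad1 was at 4.32 and 29.8 (6.9-fold, 5.32 to 9.05). Cyp4ac3 was at 5.71 and 4.49 at 2 h without and with uracil and at 6.07 and 37.6 at 16 h, 6.19-fold higher at the later time (4.95 to 7.79). Uracil at 16 h was thus the single high library of Cyp4ac3, with the other 3 close together. Cyp4d8 was at 22.1 and 23.2, then 12.3 and 49.2 (4-fold, 3.38 to 4.73). Cyp4g1, the oxidative decarbonylase that makes cuticular hydrocarbons in oenocytes, was at 180 and 103 at 2 h and at 76.9 and 303.3 at 16 h (3.94-fold, 3.69 to 4.21). It had the highest mean level per kb among the 9 (72.8 normalized counts per kb), and its untreated libraries differed from each other by 2.34-fold (2.17 to 2.53). Cyp311a1 was at 12.2 and 13.5, then 12.8 and 39.6 (3.09-fold, 2.61 to 3.68), again with 1 high library. Cyp4aa1 was at 6.98 and 5.67, then 8.06 and 25.5 (3.16-fold, 2.55 to 3.94). The other two of the 9 were rare transcripts. Cyp312a1 was at 0.38 and 0.118, then 2.63 and 9.32 (3.54-fold at 16 h, 2.44 to 5.21), with 1 read in the uracil 2 h library. Cyp4s3, which passed the filter only through the uracil 16 h library, was at 0.38 and 0.591, then 1.34 and 4.32 (3.22-fold, 1.88 to 5.65).

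Several CYP4 genes lay just inside 2-fold at 16 h. Cyp4e2 was at 29.3 and 18.8 at 2 h without and with uracil and at 47.4 and 95.3 at 16 h (log2 ratio 0.99), Cyp4ac2 at 1.65 and 2.24, then 2.04 and 4.99 (0.98), and Cyp4p3 at 3.8 and 8.43 at 16 h (0.97). Cyp4e1 was at 3.17 and 1.18, then 5.02 and 9.21 (0.76). Cyp4e3, lower with uracil at 2 h, was at 11.8 and 15.7 at 16 h (0.39). Of the abundant CYP4 genes, Cyp4d14 was at 146 and 130, then 167 and 236 (0.49), Cyp4d2 at 142 and 132, then 81.7 and 105 (0.36), and Cyp4ac1 at 79.9 and 72.3, then 122 and 158 (0.38). Cyp4g15, a relative of Cyp4g1 known from the nervous system, was at 12.3 and 14.8, then 16 and 21 (0.37). The remaining genes of the clan (Cyp4p1, Cyp4p2, Cyp313a4, Cyp313b1 and Cyp318a1) had log2 ratios between 0.17 and 0.58 at 16 h. Exons of Cyp4aa1, Cyp4s3 and Cyp4e1 overlap exons of Strn-Mlck, Rab3-GEF and Mal-A1 on the other strand, by 334, 461 and 82 bases, and Cyp4d2, Cyp4d14 and Cyp4ae1 are overlapped over most of their exons by annotated antisense RNAs. Without the strand setting, reads of these pairs cannot be told apart.

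The CYP3 genes that were higher with uracil at 16 h were mostly rare. Cyp6a19 was at 1.17 normalized counts untreated and 4.21 with uracil (3.61-fold, 2.05 to 6.54), Cyp6g2 at 1.64 and 4.88 (2.98-fold, 1.82 to 4.98) and Cyp6w1 at 1.52 and 4.21 (2.77-fold, 1.64 to 4.76). Exons of Cyp6g2 share 94 bases with those of the abundant Cyp6g1. Cyp6a18 was at 19.5 untreated and 41.1 with uracil (2.12-fold, 1.82 to 2.46). Cyp6a17 was the one P450 gene at least 2-fold lower, at 17 and 5.43 (ratio 0.32, 0.231 to 0.434). The detoxification genes of higher level were within 2-fold at 16 h. Cyp6g1 was at 524 and 388 at 2 h without and with uracil and at 602 and 846 at 16 h (log2 ratios -0.43 and 0.49). Cyp6a2 was at 150 and 149 at 16 h (0.00). Cyp28d1, which is known to raise nicotine tolerance, was at 226 and 156, then 256 and 170 (-0.54 and -0.59), so both uracil libraries were below both untreated ones. Cyp6a20, known for its effect on aggression, was at 158 and 123, then 263 and 212 (-0.36 and -0.31).

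In the mitochondrial clan, 6 of 7 genes lay above 0 at 16 h and 1 of 7 at 2 h, where 48.6% and 52.2% of all genes did. Cyp12a5 was at 492 and 564 at 2 h without and with uracil and at 185 and 282 at 16 h (log2 ratios 0.20 and 0.61). Cyp12e1 was at 25.1 and 19.3, then 17.2 and 29.3 (-0.37 and 0.73). Cyp49a1 was at 0.888 and 0.354, then 1.4 and 3.44 (-0.48 and 0.89). It is 1 of the 6 genes above 0 at 16 h and passed the filter only through the uracil 16 h library. Cyp301a1, which is known to act in cuticle formation, was at 2.92 and 2.36, then 1.64 and 2.66. The other members, Cyp12a4, Cyp12b2 and Cyp12c1, had log2 ratios of 0.31, 0.26 and -0.07 at 16 h. Both CYP2 genes were low, Cyp305a1 at 15.1 and 19.1, then 12 and 9.09, and Cyp304a1 between 5.55 and 5.99 in the 4 libraries.

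**Figure D3:**
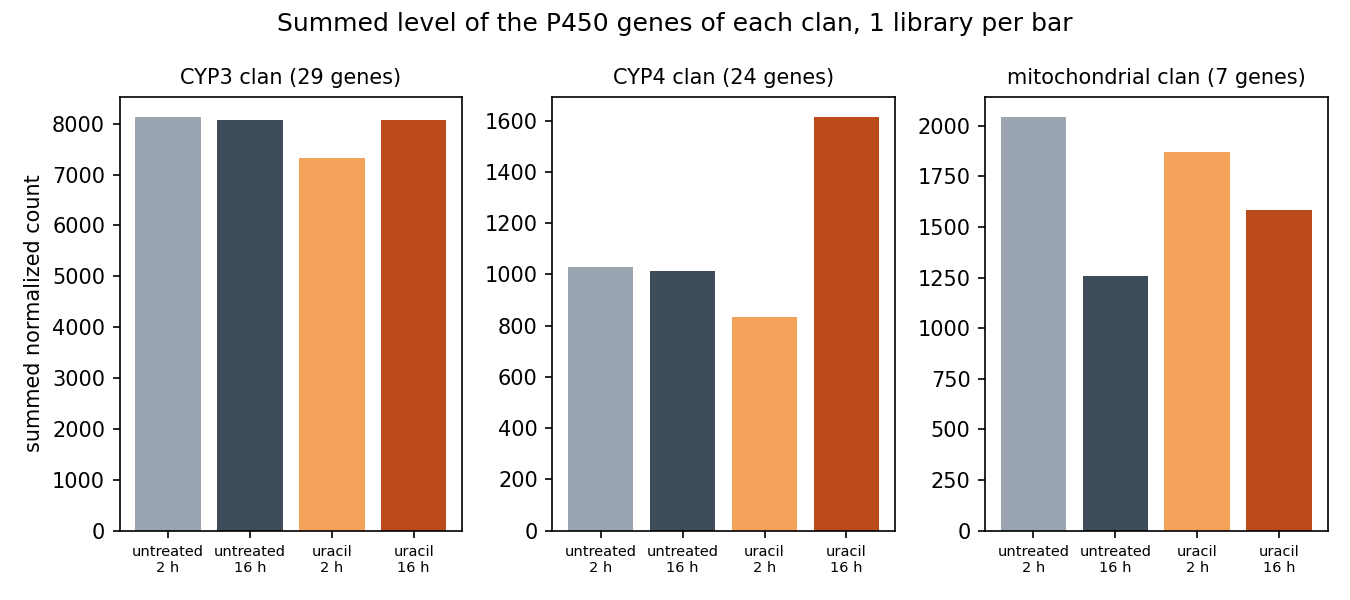
Summed normalized counts of the CYP3, CYP4 and mitochondrial clans, 1 bar per library, each panel with its own axis from 0. The CYP4 sum is 1614 with uracil at 16 h against 835 to 1028 in the other libraries, while the CYP3 sum lies between 7334 and 8130.

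Tubule and oenocyte markers stood higher in the uracil 16 h library beside the CYP4 genes. Of the 16 tubule markers 7 were at least 2-fold higher with uracil at 16 h and 1 was lower. Their median log2 ratio was 0.99, with a summed level of 660 untreated and 1174 with uracil. Uro was at 67.2 and 210 and NaPi-T at 56.4 and 224. Of 6 measured oenocyte markers 2 were higher and 0 lower (median 0.93), with a sum of 82.8 and 183, of which Drip, a gene also among the tubule markers, made up 60.5 and 122. These 2 were the hydrocarbon genes desatF (4.15 and 21.8) and eloF (1.23 and 8.76). Of the visceral muscle markers 5 of 9 were higher, with sums of 1788 and 3143 at 16 h and of 1791 and 2585 at 2 h. Fat body markers, 6 of 12 measured, summed to 1607 and 1548 at 16 h and 1665 and 1601 at 2 h, and 1 of the 6 was at least 2-fold higher with uracil at 16 h, the larval serum protein gene Lsp1gamma (4.44 and 31.8). Of its relatives, Lsp1alpha and Lsp2 had at most 1 read in each library and Lsp1beta was at 3.04 in the untreated 2 h library and at most 0.354 elsewhere. The part of these tissues in the CYP4 values was not tested.

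Taking both times together, P450 genes tended to be lowest with uracil at 2 h and highest with uracil at 16 h. Of the 62 genes, 34 (54.8%) had their highest value with uracil at 16 h, where 30.1% of all genes did, and 28 (45.2%) had their lowest with uracil at 2 h, where 23.2% of all genes did. Both held for 19 genes (30.6%) and for 11.1% of all genes. The 34 include Cyp4s3, Cyp49a1 and Cyp6t3, which passed the filter only through the uracil 16 h library. In the CYP4 clan 20 of 24 genes were highest with uracil at 16 h and 12 combined this with the lowest value at 2 h. In the CYP3 clan these numbers were 11 and 6 of 29. Among the tubule markers, 13 of 16 were highest with uracil at 16 h and 9 showed both. As the plot of the 2 h against the 16 h ratios shows, 4 genes were at least 2-fold apart on opposite sides. Cyp4d1, Cyp4ad1 and Cyp6a18 were lower with uracil at 2 h and higher at 16 h, and Cyp6a17 was higher and then lower. Cyp6a19 alone was at least 2-fold higher at both times. The matching shares of all genes were not counted for either pattern, so these numbers only describe the P450 genes.

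**Figure D4:**
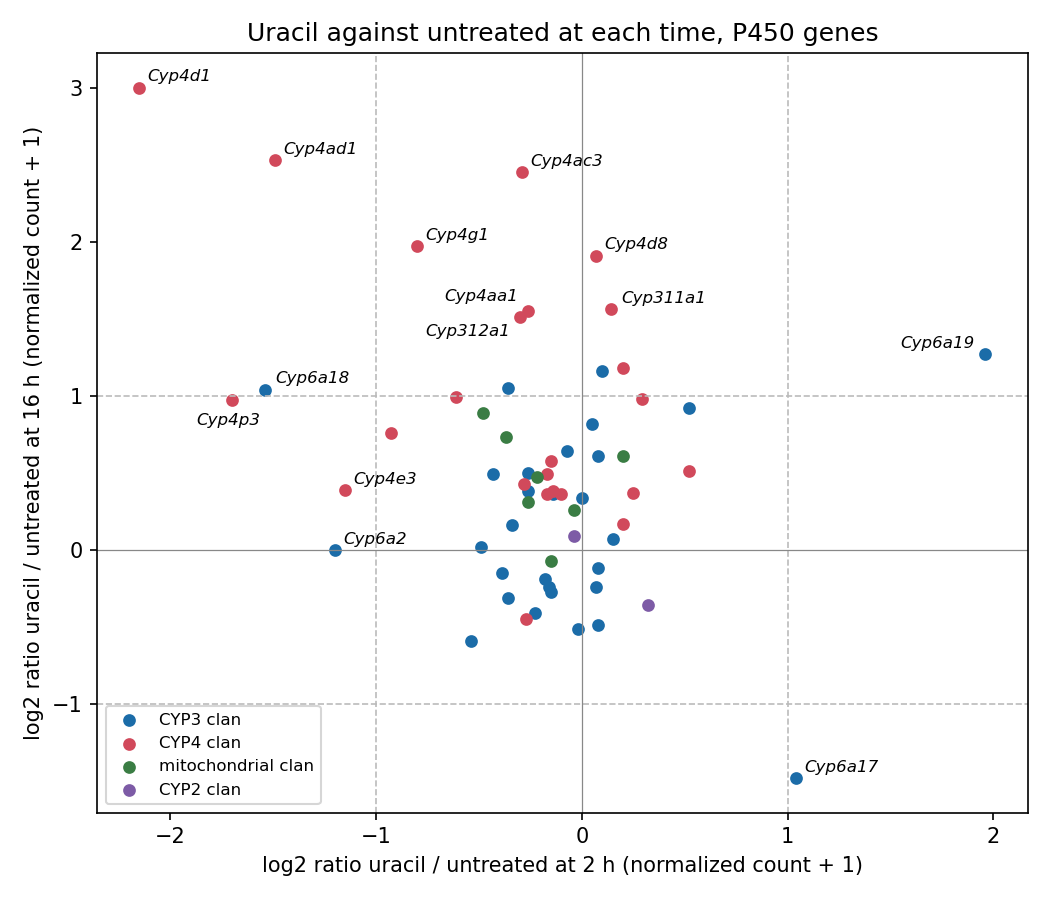
Log2 ratio of uracil to untreated, on (normalized count + 1), at 2 h (horizontal) and 16 h (vertical) for each of the 62 P450 genes, coloured by clan; dashed lines mark 2-fold. Cyp4d1 lies at -2.15 and 3.0, Cyp6a17 at 1.04 and -1.48, and Cyp6a19 at 1.96 and 1.27.

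Genes that lie side by side did not share 1 pattern. On X, Cyp4d1, Cyp4d14, Cyp4d2 and Cyp4ae1 form a chain in the Ensembl annotation, with gaps of at most 20 kb between successive P450 genes. Their log2 ratios at 16 h were 3.0, 0.49, 0.36 and -0.45. In the trio Cyp4ac1, Cyp4ac2 and Cyp4ac3 on 2L they were 0.38, 0.98 and 2.45. The trio Cyp4ad1, Cyp4e2 and Cyp4e1 on 2R was lower at 2 h (-1.49, -0.61 and -0.93) and higher at 16 h (2.53, 0.99 and 0.76), all on the same side. In the large 2R group, Cyp6a22 was at 0.52 and 0.92 at the 2 times, Cyp6a17 at 1.04 and -1.48, Cyp6a23 at -0.18 and -0.19, Cyp6a19 at 1.96 and 1.27, Cyp6a9 at -0.34 and 0.16, Cyp6a20 at -0.36 and -0.31 and Cyp317a1 at -0.15 and -0.27. Cyp6a17 and its neighbour Cyp6a23 are related in sequence, and the sources used here do not say how reads that match both were assigned. Exons of Cyp317a1 share 1331 bases with exons of Kank on the other strand. Kank was at 86.6 and 77.4 at 2 h without and with uracil and at 133 and 121 at 16 h. Without the strand setting, reads of this pair cannot be told apart.

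The libraries also allow 16 h to be compared with 2 h, using the same libraries as the uracil comparisons, so the values are not independent of them. In untreated guts 2 of 62 P450 genes (3.23%) were at least 2-fold higher at 16 h, where 2.78% of all genes were, and 5 (8.06%) were lower, where 2.85% of all genes were. The median was 0.01 against 0.04 for all genes. With uracil 19 (30.6%) were higher, where 9.34% of all genes were, and 3 (4.84%) lower, where 2.94% of all genes were, and the median was 0.48 against -0.01. The 19 include Cyp4s3 and Cyp49a1, which passed the filter only through the uracil 16 h library. Of the CYP4 clan, 13 of 24 were higher at 16 h with uracil and 0 lower, against 1 higher and 3 lower without. The 3 lower in untreated guts were Cyp4ad1, Cyp4e3 and Cyp4g1. With uracil, Cyp4d1 spanned 0.709 to 93.6, a ratio of 132 (60.4 to 361) that rests on few reads at 2 h. Cyp6a18 was 11.6-fold higher (7.99 to 17.5), Cyp4p3 11.9-fold (5.22 to 33.4), Cyp4ad1 9.71-fold (6.48 to 15.1) and Cyp4e2 5.07-fold (4.28 to 6.04). Cyp312a1, with 1 read at 2 h, gave a ratio of 78.8 (13.8 to 3151).

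A few abundant genes differed by time on the same side with and without uracil. Cyp6d5 was at 622 and 441 normalized counts at 2 h (untreated, uracil) and at 1528 and 1549 at 16 h, 2.46-fold (2.38 to 2.53) and 3.51-fold (3.39 to 3.64) higher at the later time. Both 16 h libraries were nearly equal. Cyp309a1 was at 329 and 348, then 152 and 107, a ratio of 0.461 (0.437 to 0.487) without and 0.309 (0.287 to 0.332) with uracil. Cyp12a5 was lower at 16 h in untreated guts, with a ratio of 0.375 (0.358 to 0.393), and had a log2 ratio of -1.0 with uracil, just inside 2-fold. Enterocyte markers had median log2 ratios of -0.85 and -0.52 over the same 2 comparisons.

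A uracil effect common to the 2 times, and a time effect common to the 2 treatments, could be tested over all 8568 genes with limma, in a model of treatment and time with 1 residual degree of freedom. For uracil, 0 of 62 P450 genes passed an adjusted p of 0.05 by limma, where 0.035% of all genes did, and 0 by edgeR's quasi-likelihood test on the recovered reads, where 0.0584% of all genes did. At an unadjusted p under 0.05 there were 2 by limma (3.23%, against 4.54% of all genes) and 3 by edgeR (4.84%, against 4.72%). Its error term is the treatment-by-time interaction, as there are no replicates. Values on opposite sides at the 2 times, as those of Cyp4d1, largely cancel in this model and also widen its error (SE 1.06 for Cyp4d1). The lowest value was that of Cyp6a19, with a shared log2 difference of 1.61 (SE 0.338) and a limma adjusted p of 0.465, higher with uracil at 2 of 2 times. Cyp28d1 followed at -0.56 (SE 0.189, limma adjusted p = 0.912), lower at 2 of 2 times. For time, 1 of 62 passed by limma, where 0.42% of all genes did, and 0 by edgeR, where 0.0233% did. The 1 gene was Cyp6d5, which rose by 1.55 on the log2 scale from 2 h to 16 h (SE 0.195, limma adjusted p = 0.0439, edgeR adjusted p = 0.0993). This call was lost with DESeq2 size factors, with a pseudocount of 0.1 and without the mean-variance trend. Cyp309a1 (-1.40, SE 0.22) and Cyp12a5 (-1.20, SE 0.198) each had a limma adjusted p of 0.0736. At an unadjusted p under 0.05, limma gave 19 P450 genes for time (30.6%, against 16% of all genes) and edgeR 16 (25.8%, against 14.8%).

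Redox partner, haem and regulator genes were within 2-fold in both uracil comparisons. Of 5 measured redox partner genes, 0 were 2-fold apart at either time, with medians of 0.02 at 2 h and -0.22 at 16 h. Cpr, the reductase that passes electrons to microsomal P450s, was at 1100 and 1210 at 2 h without and with uracil and at 834 and 711 at 16 h. Of 8 measured genes of haem synthesis and breakdown, 0 were 2-fold apart, with medians of 0.24 and -0.40. Alas, the first enzyme of haem synthesis, was at 239 and 281, then 250 and 126. Of 13 measured transcription factors and partners of the xenobiotic and ecdysone responses, 0 were 2-fold apart, with medians of -0.03 and -0.13. The stress factor gene cnc was at 625 and 581, then 602 and 641, and the xenobiotic receptor gene Hr96 at 130 and 177, then 121 and 97. Among P450 genes of ecdysone synthesis, which carry other symbols, shd was measured. It encodes the enzyme that makes the active hormone, 20-hydroxyecdysone, and was at 11.7 and 8.98, then 10.7 and 39.7, a log2 ratio of 1.79 at 16 h. Of the others, sad, spo, spok and dib were below 1 in every library, and phm had no matched gene ID. Of 4 measured sterol-handling genes 1 was at least 2-fold higher with uracil at both times, the sterol uptake gene Npc1b, at 92.3 and 331, then 103 and 277 (limma adjusted p = 0.198).

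At the edge of the filter, Cyp6t3, known from ecdysone synthesis, had a mean of 1.10 normalized counts and Cyp49a1 one of 1.52, just inside. Just outside lay Cyp18a1, the ecdysone 26-hydroxylase, at 0.87 and Cyp303a1, needed for sensory bristles, at 0.80. In all 15 P450 genes lay below the mean of 1, and Cyp308a1, Cyp313a2 and Cyp313a5 had 0 reads in every library, which allows up to 0.175 normalized counts in the deepest library and 0.38 in the shallowest. Cyp6a8, a fatty acid hydroxylase gene, and Cyp4d21, a gene of male courtship, were among the 15, at no more than 0.555 and 0.444 in any library. Cyp12d1-p, whose symbol ends in a suffix and which is therefore no member, was at 22.3 and 18.1, then 25.4 and 33.1, and its near-identical copy Cyp12d1-d at no more than 0.591. Reads could be split unequally between these copies. A further 4 P450 symbols of the gene name table (Cyp6a14, Cyp6a16, Cyp6a21 and Cyp9f3) were not analysed here.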

How the data were processed

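Polyadenylated RNA was purified on silica columns and turned into TruSeq libraries, per the labels' protocols. Each gene has 1 deposited signal in each library, named normalized counts by the authors. HTSeq, edgeR, Bowtie, TopHat2 2.0.5 and cutadapt 1.0 were used, per the submitters' processing notes. The genome build, annotation and strand handling were not given in any source used here. All values were whole multiples of 1 step per library (100.0% within 0.01 reads), so reads were recovered by dividing by that step. They came to 8500378 (untreated 2 h), 16588143 (untreated 16 h), 8990316 (uracil 2 h) and 8841796 (uracil 16 h). Of 13646 lines, 118 shared 57 IDs and were summed. A symbol was found for 12888 of 13585 IDs, and 697 stayed without one.

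Log2 ratios were taken after adding 1 normalized count, over 8568 genes whose mean was 1 or more. A difference of at least 2-fold was counted as a size rule, since there was 1 library per group. Intervals of ratios are exact (Clopper-Pearson) 95% intervals from the reads. The floor for 0 reads was 3 reads. Both cover counting error only. limma 3.58.1 (additive, with trend) was fitted to all genes with Benjamini-Hochberg adjustment, and edgeR 4.0.16 (quasi-likelihood) on the recovered reads and DESeq2 1.42.0 size factors were alternatives, as were other pseudocounts and filters. With 1 library per group, the p-values measure no scatter between replicate libraries. Their error term is the treatment-by-time interaction, the 1 residual degree of freedom, moderated with the variances of all genes. The fits were tested on simulated data with known changes.

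The P450 genes, their clans (from the family number), the marker lists of gut and neighbouring tissues and the lists of redox, haem, regulator, ecdysone and sterol genes were chosen with earlier results of these data known. Genes named with values are those 2-fold apart in any comparison, the most abundant, those with a known role and those at the edge of the filter. Genes outside that rule (further members of the clans and of neighbouring groups) were named to account for every member. Clustering, arms and exon overlaps come from Ensembl release 115 by gene ID. Exons of 20 of the 62 genes overlap another gene, and not all of these are named. Members with near-identical or overlapping genes are named where it bears on a value.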

Additional observations from a re-analysis of the deposited data

Results flagged for a closer look

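For 4 P450 genes the uracil library lay at least 2-fold on 1 side of the untreated library at 2 h and at least 2-fold on the other side at 16 h. Cyp4d1 had log2 ratios of -2.15 and 3.0, Cyp4ad1 of -1.49 and 2.53, Cyp6a18 of -1.54 and 1.04, and Cyp6a17, in the other order, of 1.04 and -1.48. Each ratio compares 1 library with 1 library, and the difference between the times was not tested. The share of all genes with such opposite sides was not counted.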

How the results depend on the processing

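Of 51 single-gene differences of at least 2-fold, tried under other settings 204 times in all, 184 values stayed past 2-fold, 20 came below it and 0 reversed. Of 100 counts and medians under other settings, 82 stayed within 1.5 times the count or 0.1 of the median and 18 did not. A pseudocount of 5 shrinks low genes. With it, 1 P450 gene was at least 2-fold higher with uracil at 2 h and 3 were lower. Of all 8568 genes 40 were higher and 54 lower. At 16 h, 7 P450 genes were higher with uracil, as were 377 of all genes. In untreated guts 1 P450 gene was higher and 3 lower at 16 h than at 2 h, beside 84 and 135 of all genes. The P450 median over time with uracil was 0.36. Among the 47 P450 genes with a mean of at least 10, 1 was higher with uracil at 2 h, 8 were higher at 16 h and 1 was higher at 16 h in untreated guts, and the median over time with uracil was 0.29. Of all 6601 genes at that level, 41 were higher with uracil at 2 h, 357 at 16 h, and 137 were higher at 16 h in untreated guts. Rescaling the columns to the same total moved the median of all genes over time in untreated guts from 0.04 to 0.18 and that of the P450 genes to 0.16, with 2 P450 genes lower. Of all 8578 genes kept under that rescaling, 186 were at least 2-fold lower. The share of higher genes among those 2-fold apart then went from 49.4% to 67.3%. P450 genes past the limma threshold for time were 6 after that rescaling and 7 without a filter. They were 0 with DESeq2 size factors, with a pseudocount of 0.1, without the trend and by edgeR. Shares of all genes past the limma threshold under these other settings are not given here. The changes in the P450 count are therefore not shown to be particular to P450 genes. Adding Cyp12d1-p and Cyp12d1-d, chosen after seeing the data, gave 63 genes and the same counts at 2 h, 2 higher and 6 lower. No paired analysis was possible because the labels carry no replicate numbers that could serve as a block. The limma and edgeR fits already hold time as a term. Leaving out a library was not possible either, as it empties a group. Values of rare genes such as Cyp312a1 and Cyp4s3 rest on few reads.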
